A study of Mus musculus with 12 samples.

Results

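The transcripts described here are the 730 entries of the NONCODE catalogue that liver expressed at a mean of at least 2 TPM over all 12 libraries. They were selected by that mean alone, from 12007 NONCODE entries among the 52170 transcripts that the authors list as long noncoding RNA (lncRNA). TPM is a level per length of transcript as a share of the library. Because the selection used the mean of every library together, the levels below are a description. Group labels played no part in it, but a transcript high in only some groups can reach the mean through them. For example, the transcripts NONMMUT013175.2 of Narf, NONMMUT029656.2 of Gm26917 and NONMMUT067851.2 of Gm26870, described below, averaged under 2 TPM in NFD. They entered through the high fat groups. Those of Entpd8 (NONMMUT108839.1), 9030616G12Rik (NONMMUT139821.1) and Camk2n1 (NONMMUT050210.2) were under 2 TPM in every NAC_HFD library and entered through the other groups. Fold changes and p-values of such transcripts carry that limit. So do shares of higher, lower and non-overlapping transcripts among the 730. At the border, transcripts of Mllt6, Asxl2 and Dctn4 entered with means of 2.02, 2.02 and 2.03 TPM, and NONCODE transcripts of Arhgap42, Gm47889 and Tnrc18 stayed out with 2.00, 1.99 and 1.99 TPM.

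Livers came from C57BL/6 mice in 3 groups of 4 libraries each. NAC_HFD mice received a high fat diet together with N-acetylcysteine, a precursor of cysteine and glutathione, at 2 g per litre of drinking water, HFD mice the high fat diet alone, and NFD mice a normal fat diet. Feeding lasted 14 weeks, and the labels state an age of 8 weeks without saying when it was taken. The labels do not say that each library is 1 animal, and the p-values measure only the spread between these libraries. The design asks how lncRNA of the liver differs with the diet and with N-acetylcysteine on that diet.

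A lncRNA is a long transcript with no known protein product. Some act in the nucleus, such as Neat1, the scaffold of paraspeckles, and Malat1 in nuclear speckles. Others are read from the opposite strand of a coding gene, and many catalogue entries are noncoding isoforms of coding genes, for instance with a retained intron. NONCODE collects such transcripts from many sources, so a NONCODE entry and the mRNA of its gene can share most of their sequence. The sources used here do not say how reads were divided between such transcripts, and each level below carries that limit.

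Of the 730 transcripts, 518 belonged to 506 genes that also had mRNA in the authors' mRNA table, and 212 belonged to genes that had none. By symbol 633 matched a RefSeq gene of GRCm38.p6, of which 511 were protein coding, 113 were lncRNA genes and 9 were pseudogenes, 4 of these transcribed. In all there were 679 host genes, 37 of them with several of the transcripts.

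Promoters of 3 host genes, C730036E19Rik, Narf and Hnf4aos, are shown because the results below turn on their transcripts. NONMMUT003114.2 of C730036E19Rik and NONMMUT013175.2 of Narf were higher in HFD than in NFD libraries without overlap. Neither of these differences passed the test described below. The other NONCODE transcript of C730036E19Rik overlapped between those groups. Hnf4aos had a pair of transcripts that ran in step. They are RefSeq sequences of GRCm38.p6, from 250 bases before to 50 bases after the annotated gene start, on the strand of the gene. The start of the NONCODE transcript itself may lie elsewhere. Capitals mark matches, on either strand, to CCAAT (the CCAAT box), TATAAA (the TATA box) or CAAAGTCC, a sequence of the kind that the hepatocyte factor Hnf4a binds. The 3 motifs share no overlapping match here.
C730036E19Rik, chr1:151137784-151138083, plus strand: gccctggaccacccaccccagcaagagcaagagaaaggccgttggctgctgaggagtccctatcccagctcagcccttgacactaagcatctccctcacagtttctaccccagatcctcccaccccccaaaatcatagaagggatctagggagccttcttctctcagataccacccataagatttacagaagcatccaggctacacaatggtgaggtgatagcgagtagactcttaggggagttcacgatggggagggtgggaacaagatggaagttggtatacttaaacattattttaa
Hnf4aos, chr2:163541672-163541971, minus strand: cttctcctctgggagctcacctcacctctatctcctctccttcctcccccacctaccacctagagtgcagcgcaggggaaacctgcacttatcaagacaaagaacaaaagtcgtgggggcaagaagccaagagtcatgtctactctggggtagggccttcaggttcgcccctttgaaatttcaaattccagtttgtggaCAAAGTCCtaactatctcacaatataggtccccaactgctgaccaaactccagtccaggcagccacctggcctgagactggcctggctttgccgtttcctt
Narf, chr11:121236986-121237285, plus strand: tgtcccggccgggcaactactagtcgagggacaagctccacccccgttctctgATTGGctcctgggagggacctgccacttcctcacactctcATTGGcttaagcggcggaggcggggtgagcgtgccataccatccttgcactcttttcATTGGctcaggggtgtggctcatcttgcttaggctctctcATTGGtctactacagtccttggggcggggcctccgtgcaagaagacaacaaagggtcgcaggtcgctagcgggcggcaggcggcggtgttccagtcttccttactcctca
The Hnf4aos window held 1 match to CAAAGTCC, which 1.42% of the 32851 promoters of the same length hold. Narf had 4 matches to CCAAT, all on the strand opposite to the gene, where 37.4% of promoters have at least 1 and 1.06% have 4 or more. None of these letter strings was in the C730036E19Rik window, and TATAAA, found in 13.6% of promoters, was in none of the 3. A match describes letters and not a bound site.

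Most of the transcripts were rare, with a median of 4.53 TPM, and 169 reached 10 TPM and 19 reached 100 TPM. The 10 most abundant held 58.7% of the summed TPM of all 730. First among them was a transcript of Gm37350 (NONMMUT042006.2), with a mean of 4459 TPM, followed by Gm26917 (NONMMUT029658.2) with 2007 TPM. RefSeq matched neither gene, and no function is given for them here. Also among the 10 were 2 further Gm26917 transcripts, NONMMUT029652.2 at 613 TPM and NONMMUT029659.2 at 344 TPM. The other 6 came from coding genes, described next.

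The transcript of Tpt1 (NONMMUT021663.2; gene on chromosome 14, 75845256 to 75848303), which encodes translationally controlled tumour protein, had a mean of 826 TPM. That of Igfbp4 (NONMMUT011946.2; chromosome 11, 99040005 to 99052655), which binds and sequesters insulin-like growth factors, had 650 TPM. Hspa8 (NONMMUT068696.2; chromosome 9, 40801276 to 40805202), the constitutive cytosolic heat shock chaperone, contributed 646 TPM. Cps1, the mitochondrial enzyme that begins the urea cycle, Scd1, the stearoyl-CoA desaturase of fatty acid synthesis, and Cox6c, a subunit of cytochrome c oxidase, followed with transcripts NONMMUT001353.2 at 545 TPM, NONMMUT034843.2 at 517 TPM and NONMMUT143632.1 at 258 TPM.

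**Figure D1:**
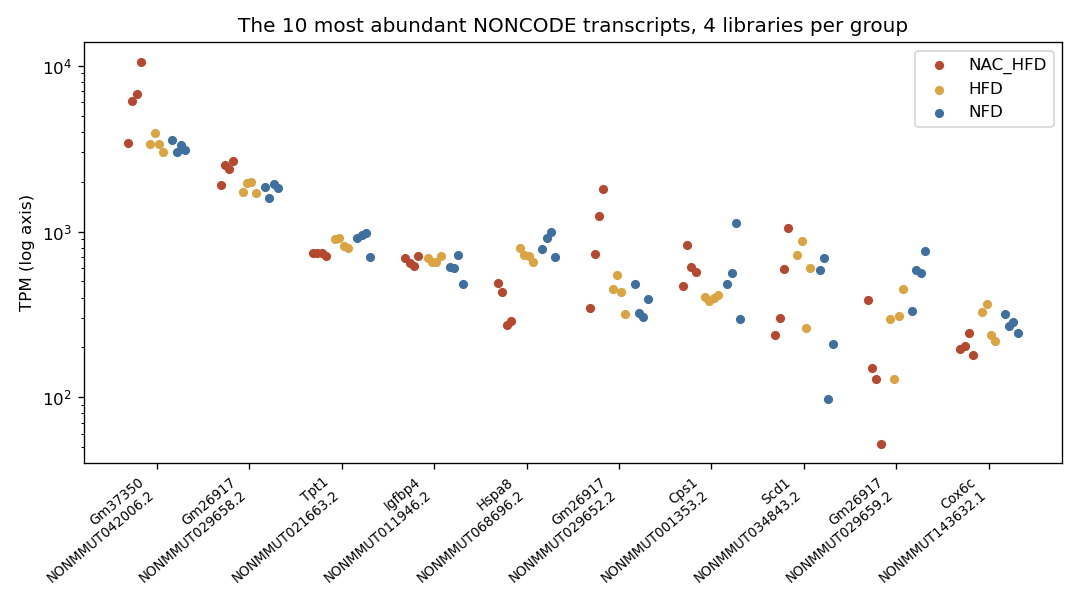
TPM on a log axis of the 10 most abundant NONCODE transcripts; each point is 1 library, with NAC_HFD, HFD and NFD from left to right within a transcript. Gm37350 spreads from 3430 to 10596 TPM in NAC_HFD libraries, against 3033 to 3941 TPM in HFD and 3012 to 3555 TPM in NFD libraries, and the Hspa8 transcript lies lowest in all 4 NAC_HFD libraries.

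The share of a gene's RNA that was listed under the NONCODE entry differed widely between coding genes. Over the 518 transcripts with mRNA of the same gene, the NONCODE transcript made up a median of 30.1% of the sum of itself and that mRNA. It stood above the mRNA in 110 cases and at 10 or more times its level in 30, while 23 stood at less than 10% of it. Of the 14 with mRNA and a mean of at least 100 TPM, 9 were above that mRNA. These 14 were picked by the NONCODE level itself, so a lean to the high side is built into the choice.

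Tpt1 was the plainest case, with 826 TPM for the NONCODE transcript and 1.70 TPM for all Tpt1 mRNA. Ndufa3, a subunit of respiratory complex I, had 182 TPM (NONMMUT151413.1) against 3.25 TPM of mRNA. The pattern held as well for Atp5f1, a subunit of ATP synthase, with 161 TPM (NONMMUT147503.1) against 1.68 TPM. Pipox, the peroxisomal pipecolate and sarcosine oxidase, had 136 TPM (NONMMUT140523.1) against 0.693 TPM. In these genes nearly all RNA in the deposited tables was thus entered under an lncRNA identifier. Conversely Hspa8, Cps1 and Scd1 had more mRNA than NONCODE transcript, at 1112, 995 and 1330 TPM of mRNA.

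**Figure D2:**
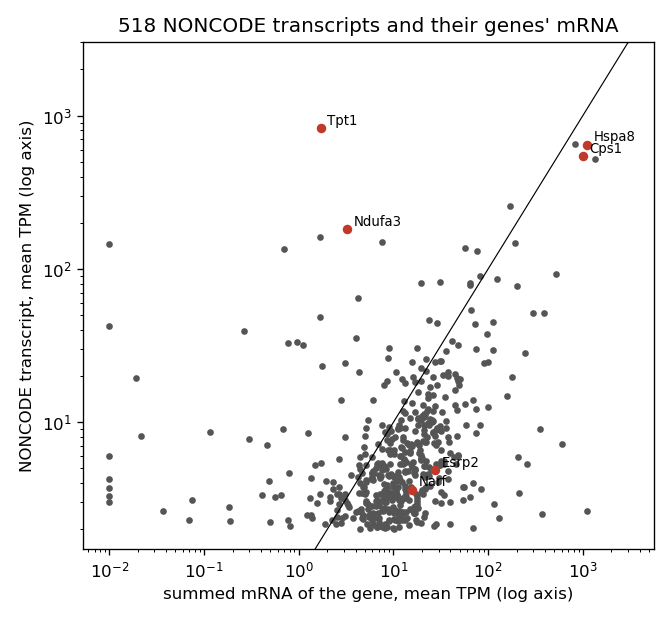
Mean TPM over 12 libraries of each of the 518 NONCODE transcripts (vertical, log axis) against the summed mRNA of its gene (horizontal, log axis; 7 genes with mRNA under 0.01 TPM are drawn at 0.01), with a line of equality. Tpt1 and Ndufa3 lie far above the line, and Hspa8, Cps1, Esrp2 and Narf below it.

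The summed level of the 730 transcripts differed between libraries mainly through 2 genes. The sum was 16258, 20432, 21354 and 26025 TPM in the 4 NAC_HFD libraries, 17677, 18971, 17009 and 16068 TPM in HFD and 17633, 17111, 17593 and 15894 TPM in NFD. Gm37350 and Gm26917 transcripts accounted for 6100 to 15164 TPM of it in NAC_HFD, 5548 to 6621 TPM in HFD and 5539 to 6255 TPM in NFD. Without those genes the sums were 10158 to 10904 TPM in NAC_HFD, 10520 to 12350 TPM in HFD and 9793 to 11573 TPM in NFD, and the 3 groups overlapped.

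The libraries resembled liver in their marker genes, with the 6 hepatocyte markers summing to 44781 to 61859 TPM in NAC_HFD, 40058 to 55790 TPM in HFD and 45553 to 50451 TPM in NFD. The 6 Kupffer cell markers summed to 35.7 to 67.0 TPM in NAC_HFD, 52.4 to 138 TPM in HFD and 37.5 to 73.4 TPM in NFD. The 3 of 4 adipocyte markers present summed to 0.14 to 1.75 TPM in NAC_HFD, 4.87 to 32.7 TPM in HFD and 0.08 to 0.65 TPM in NFD, with Adipoq and Plin1 below 0.1 TPM on average. The 4 pancreas markers summed to 20.4 to 31.5 TPM in NAC_HFD, 19.02 to 27.6 TPM in HFD and 9.79 to 17.1 TPM in NFD, and 3 of them, Cpa1, Ctrb1 and Prss2, were below 0.1 TPM on average. The adipocyte sum in HFD thus came almost wholly from the remaining marker, and the pancreas sums from Cela1, so neither is a measure of its cell type. The former set HFD apart and the latter set NFD apart, and their part in the differences below was not tested. In whole tissue, fewer cells of a type and less RNA per cell cannot be told apart. An assembled transcript, MSTRG.6188.1, alone held 23.5% to 29.6% of all TPM, and every other level is a share that depends on it.

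With limma, which fits one linear model to all transcripts at once, 2 of the 730 passed an adjusted p of 0.05 between NAC_HFD and NFD, 1 higher and 1 lower. Over all 25205 lncRNA transcripts tested 25 passed, 0.0992%, 7 higher (0.0278%) and 18 lower (0.0714%). All 730 were tested, as each reached 0.1 TPM in at least 4 libraries. Fold changes are differences of group means of log2(TPM + 0.1), adjusted by Benjamini and Hochberg over all 25205.

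The transcript of Hspa8, NONMMUT068696.2, had 486, 433, 273 and 289 TPM in NAC_HFD libraries, 793, 726, 710 and 659 TPM in HFD and 788, 909, 987 and 701 TPM in NFD. All 4 NAC_HFD libraries lay below all 8 others, and HFD and NFD overlapped. It fell in NAC_HFD relative to NFD, with a log2 fold change of -1.22 (SE 0.19, limma adjusted p = 0.0376), and relative to HFD the log2 fold change was -1.005 (SE 0.19), which did not pass (limma adjusted p = 0.132). The mRNA of Hspa8 averaged 915 ± 172 TPM in NAC_HFD, 1118 ± 72.2 TPM in HFD and 1302 ± 290 TPM in NFD (SD, n = 4 each). Its log2 difference between NAC_HFD and NFD was -0.50 (exact two-sided permutation p = 0.0857), and the libraries of those groups overlapped. With median-of-ratios scaling, which moved the median of all transcripts from -0.19 to -0.03, the fold change of the NONCODE transcript was -1.01 and the limma adjusted p 0.108.

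Narf encodes a nuclear protein that binds the prelamin A tail; its gene lies on chromosome 11, 121237236 to 121255856. The NONCODE transcript NONMMUT013175.2 had 3.39, 4.87, 7.56 and 5.29 TPM in NAC_HFD libraries, 4.90, 4.73, 3.82 and 2.77 TPM in HFD and 2.05, 1.22, 1.30 and 1.70 TPM in NFD. Every library on the high fat diet, with or without N-acetylcysteine, was above every NFD library. It rose in NAC_HFD relative to NFD (log2 fold change 1.66, SE 0.27, limma adjusted p = 0.0499). Between HFD and NFD the log2 fold change was 1.31 (SE 0.27) and did not pass, with a limma adjusted p of 0.201. Narf mRNA overlapped between the groups, at 16.7 ± 3.57 TPM in NAC_HFD, 15.2 ± 1.41 TPM in HFD and 15.6 ± 2.31 TPM in NFD (SD, n = 4 each; exact two-sided permutation p = 0.714 for NAC_HFD against NFD). Both calls rest on few libraries. With 1 NAC_HFD or NFD library left out, Hspa8 passed only without NAC_HFD replicate 1 or 2 and Narf only without NAC_HFD replicate 1, and in the other fits the limma adjusted p ran from 0.0547 to 0.108 for Hspa8 and from 0.0653 to 0.128 for Narf.

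The next smallest p-values between NAC_HFD and NFD did not pass. Gm17491 (NONMMUT114777.1), for which no function is given here, had 44.2, 44.9, 44.8 and 45.2 TPM in NAC_HFD, 60.6, 59.9, 72.3 and 51.2 TPM in HFD and 76.8, 73.4, 77.5 and 67.8 TPM in NFD. Its NAC_HFD libraries were almost equal and all below the others (log2 fold change against NFD -0.72, SE 0.12, limma adjusted p = 0.0520). Larp4, which binds the poly(A) tail of mRNA, had a transcript (NONMMUT025018.2) at 7.93, 8.81, 5.69 and 6.34 TPM in NAC_HFD, 5.65, 4.95, 5.51 and 5.13 TPM in HFD and 3.3, 3.77, 4.2 and 2.85 TPM in NFD. Here the 3 groups did not overlap at all, with NAC_HFD highest and NFD lowest (log2 fold change of NAC_HFD against NFD 1.0, SE 0.18, limma adjusted p = 0.0686). Gm26870 (NONMMUT067851.2) had 2.61 to 3.28 TPM in NAC_HFD, 1.89 to 2.56 TPM in HFD and 0.74 to 2.09 TPM in NFD (log2 fold change of NAC_HFD against NFD 1.32, SE 0.27, limma adjusted p = 0.0891).

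Across the 730, 149 had an unadjusted limma p under 0.05 between NAC_HFD and NFD, 58 higher and 91 lower, or 20.4% where all transcripts gave 13.3% (2.75% higher and 10.5% lower). The groups did not overlap in 82, 30 higher and 52 lower, or 11.2% against 6.92% of all transcripts (1.16% higher and 5.75% lower). Among the Ensembl transcripts of the table that also reached a mean of 2 TPM, 21.8% had such a p and 10.3% did not overlap. The median log2 fold change of the 730 was -0.09 and that of all transcripts -0.19.

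No NONCODE transcript passed between NAC_HFD and HFD with limma, where 8 of all 25205 lncRNA transcripts did (0.0317%), 2 higher (0.00793%) and 6 lower (0.0238%). By unadjusted limma p under 0.05 there were 110, 30 higher and 80 lower, or 15.1% where all transcripts gave 10.1% (2.64% higher and 7.49% lower). The groups did not overlap in 62, 14 higher and 48 lower, which is 8.49% against 5.56% of all transcripts (1.47% higher and 4.09% lower). Ensembl transcripts of at least 2 TPM gave 17.3% by p and 9.11% by non-overlap, above the NONCODE shares. The median log2 fold change was -0.09, and -0.11 over all transcripts.

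The smallest p belonged to Esrp2, a splicing regulator of epithelial cells with a known role in adult hepatocytes (NONMMUT067006.2; gene on chromosome 8, 106130319 to 106137193). The transcript had 3.30, 3.15, 2.08 and 1.79 TPM in NAC_HFD libraries, 7.61, 6.48, 6.76 and 5.31 TPM in HFD and 4.51, 5.17, 5.66 and 6.44 TPM in NFD. NAC_HFD libraries were below all others, at a log2 fold change of -1.34 (SE 0.22) against HFD (limma adjusted p = 0.0851) and -1.08 (SE 0.22) against NFD (limma adjusted p = 0.0869). Esrp2 mRNA averaged 24.3 ± 2.23 TPM in NAC_HFD, 26.1 ± 2.53 TPM in HFD and 31.4 ± 5.13 TPM in NFD (SD, n = 4 each), a log2 difference of -0.10 between NAC_HFD and HFD (exact two-sided permutation p = 0.343). Against NFD the mRNA was also lower in NAC_HFD, without overlap, at a log2 difference of -0.36 (exact two-sided permutation p = 0.0286, the smallest possible).

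Hnf4aos lies on the opposite strand to Hnf4a, a master transcription factor of the hepatocyte; the genes span chromosome 2, 163493804 to 163541721 and 163506811 to 163572907, and so overlap. The sources used here do not say whether counting used strand, so reads of the overlapping stretch cannot be told apart. NONMMUT041010.2 had 17.9, 11.3, 11.5 and 10.6 TPM in NAC_HFD, 27.4, 29.2, 24.8 and 21.1 TPM in HFD and 16.95, 23.9, 20.1 and 18.2 TPM in NFD. Every HFD library was above every NAC_HFD library (log2 fold change -1.01, SE 0.19, limma adjusted p = 0.132). Its partner NONMMUT110083.1 had 19.1, 10, 11.8 and 10.6 TPM in NAC_HFD, 26.2, 27.3, 23.2 and 20.4 TPM in HFD and 17.4, 22.8, 19.9 and 16.9 TPM in NFD. The pair ran in step, with a ratio between 0.939 and 1.13 in each of the 12 libraries. Hnf4a mRNA itself averaged 241 ± 16.8 TPM in NAC_HFD, 217 ± 25.7 TPM in HFD and 262 ± 28.0 TPM in NFD (SD, n = 4 each; exact two-sided permutation p = 0.143 for NAC_HFD against HFD).

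Entpd8, an ectonucleotidase of the hepatocyte canalicular membrane, had a transcript (NONMMUT108839.1) at 1.75, 1.04, 1.28 and 1.04 TPM in NAC_HFD, 2.57, 3.07, 2.72 and 2.58 TPM in HFD and 2.12, 2.64, 1.68 and 2.47 TPM in NFD. NAC_HFD lay below HFD without overlap (log2 fold change -1.07, SE 0.20, limma adjusted p = 0.137). NAC_HFD also lay below HFD for the lncRNA gene 9030616G12Rik, with 1.78, 1.37, 0.83 and 1.24 TPM for NONMMUT139821.1 in NAC_HFD, 4.50, 5.04, 3.95 and 2.67 TPM in HFD and 2.57, 6.87, 3.27 and 3.37 TPM in NFD. Its log2 fold change against HFD was -1.57 (SE 0.32, limma adjusted p = 0.166). Camk2n1, an inhibitor of calcium/calmodulin-dependent kinase II, had a transcript (NONMMUT050210.2) at 0.48 and 0.83 TPM in 2 NAC_HFD libraries and listed at 0 in the other 2, with 2.23, 9.3, 4 and 5.76 TPM in HFD and 5.2, 8.16, 4.18 and 0.60 TPM in NFD. For NAC_HFD against HFD the log2 fold change was -4.14 (SE 0.88, limma adjusted p = 0.183), a size that depends on the pseudocount. Camk2n1 mRNA differed by less than its SD, at 17.9 ± 2.85 TPM in NAC_HFD, 16.6 ± 3.27 TPM in HFD and 17.2 ± 1.76 TPM in NFD (SD, n = 4 each).

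**Figure D3:**
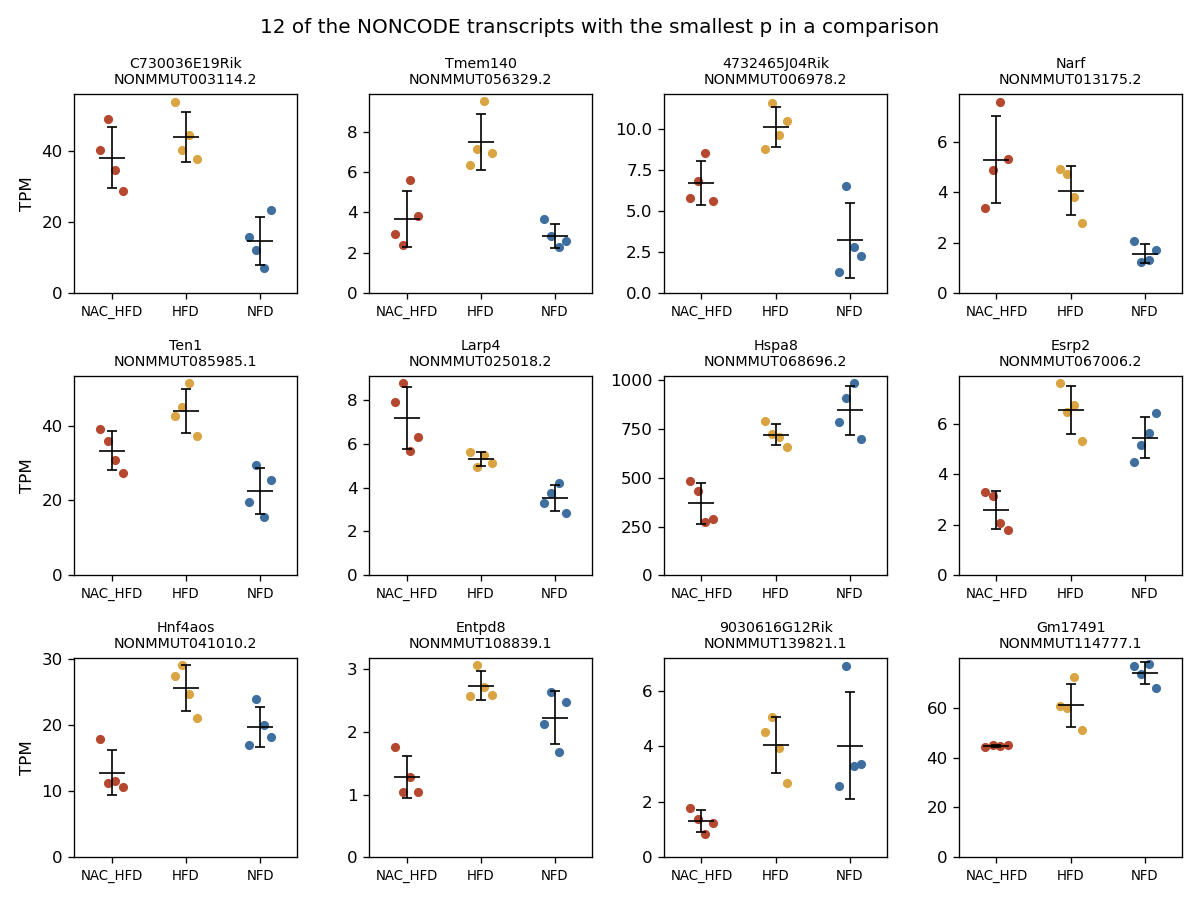
TPM by library of 12 NONCODE transcripts with the smallest p in at least 1 comparison; points are libraries, the bar and whiskers the mean ± SD of 4 libraries, groups NAC_HFD, HFD and NFD from left to right. The Hspa8 transcript lies at 273 to 486 TPM in NAC_HFD, below all HFD and NFD libraries, and the C730036E19Rik transcript at 7.25 to 23.5 TPM in NFD, below all libraries of the other groups.

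Between HFD and NFD, limma passed none of the 730, where 7 of all 25205 lncRNA transcripts passed (0.0278%), 4 higher (0.0159%) and 3 lower (0.0119%). At an unadjusted limma p under 0.05 there were 89, 60 higher and 29 lower, or 12.2% where all transcripts gave 8.02% (3.21% higher and 4.80% lower). HFD and NFD did not overlap in 58, 41 higher and 17 lower, which is 7.95% against 4.78% of all transcripts. Of all transcripts 1.99% were higher and 2.79% lower without overlap. Of the Ensembl transcripts of at least 2 TPM 11.1% had such a p and 7.15% did not overlap, and of the assembled ones of that level 12.7% had such a p. The median log2 fold change was 0.01 for the 730 and -0.09 over all transcripts; the difference between these was not tested.

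C730036E19Rik led this comparison. RefSeq gives it the synonym lncLSTR, a liver lncRNA of mouse known for its effect on plasma triglyceride clearance, on chromosome 1, 151138034 to 151144095. NONMMUT003114.2 had 40.3, 49.0, 34.8 and 28.8 TPM in NAC_HFD libraries, 53.8, 40.3, 44.7 and 37.7 TPM in HFD and 15.9, 12.1, 7.25 and 23.5 TPM in NFD. All libraries on the high fat diet were above all NFD libraries, and NAC_HFD overlapped HFD. The log2 fold change of HFD against NFD was 1.69 (SE 0.30) and did not pass (limma adjusted p = 0.139). With median-of-ratios scaling the limma adjusted p was 0.0489, the only 1 of 18 alternatives in which it passed. For NAC_HFD against NFD the log2 fold change was 1.47 (SE 0.30, limma adjusted p = 0.0895). The other NONCODE transcript of the gene, NONMMUT003111.2, overlapped between the groups, at 6.62 to 9.17 TPM in NAC_HFD, 8.12 to 11.6 TPM in HFD and 7.89 to 8.48 TPM in NFD. Over all 6 lncRNA transcripts of the gene the sum was 54.3 ± 12.4 TPM in NAC_HFD, 64.1 ± 9.04 TPM in HFD and 25.7 ± 8.06 TPM in NFD (SD, n = 4 each).

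The lncRNA gene 4732465J04Rik (chromosome 10, 95773133 to 95794984) had 2 transcripts among the 730. NONMMUT006978.2 was at 5.80, 6.81, 8.55 and 5.61 TPM in NAC_HFD, 8.78, 11.6, 9.63 and 10.5 TPM in HFD and 1.31, 6.52, 2.80 and 2.27 TPM in NFD. Its HFD libraries were above all others, and 1 NFD library stood apart from the rest of its group (log2 fold change of HFD against NFD 1.85, SE 0.37, limma adjusted p = 0.196). The partner NONMMUT006979.2 had 8.43 to 12.5 TPM in HFD, against 1.62, 2.04, 2.24 and 8.01 TPM in NFD. Without NFD replicate 2, the library that stood apart, both passed, with limma adjusted p of 0.0152 and 0.00264. Each passed in only this 1 of 18 alternatives, and the limma adjusted p ran up to 0.408 and 0.478 in the others.

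Tmem140 encodes a transmembrane protein; NONMMUT056329.2 had 2.95, 2.37, 5.59 and 3.8 TPM in NAC_HFD, 6.34, 7.15, 9.50 and 6.94 TPM in HFD and 3.68, 2.82, 2.27 and 2.58 TPM in NFD. HFD lay above both other groups, which overlapped each other (log2 fold change of HFD against NFD 1.37, SE 0.26, limma adjusted p = 0.151). Tmem140 mRNA was likewise highest on average in HFD, at 4.85 ± 0.652 TPM in NAC_HFD, 7.84 ± 1.04 TPM in HFD and 5.31 ± 1.36 TPM in NFD (SD, n = 4 each). Ten1, a subunit of the telomere-capping CST complex, had a transcript (NONMMUT085985.1) at 27.4 to 39.2 TPM in NAC_HFD, 37.3 to 51.5 TPM in HFD and 15.6 to 29.5 TPM in NFD (log2 fold change of HFD against NFD 0.99, SE 0.20, limma adjusted p = 0.201).

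The largest fold change in this comparison came from a rare Gm26917 transcript, NONMMUT029656.2. It was listed at 13.3, 5.02, 0 and 11.5 TPM in NAC_HFD, at 4.71, 6.21, 11.1 and 8.63 TPM in HFD and at 0.01 TPM in all 4 NFD libraries. The log2 fold change of HFD against NFD was 6.07 (SE 1.20, limma adjusted p = 0.196) and its size depends on the pseudocount, since NFD lies below it. Fitted to HFD and NFD alone it passed, with a limma adjusted p of 0.000133, in only this 1 of 18 alternatives. That fit leaves out the spread of the NAC_HFD libraries, and the 4 NFD values are equal, so its p-value is not separate support. In the authors' deposited table the ratio for this transcript was 950, with an adjusted p of 2.05e-11. The gene as a whole did not rise. Its Ensembl transcript ENSMUST00000182520 went the other way, at 36.8, 2.68, 0 and 0 TPM in HFD and 1311, 519, 113 and 530 TPM in NFD. All 14 lncRNA transcripts of Gm26917 together averaged 5123 ± 386 TPM in HFD and 6691 ± 661 TPM in NFD (SD, n = 4 each).

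**Figure D4:**
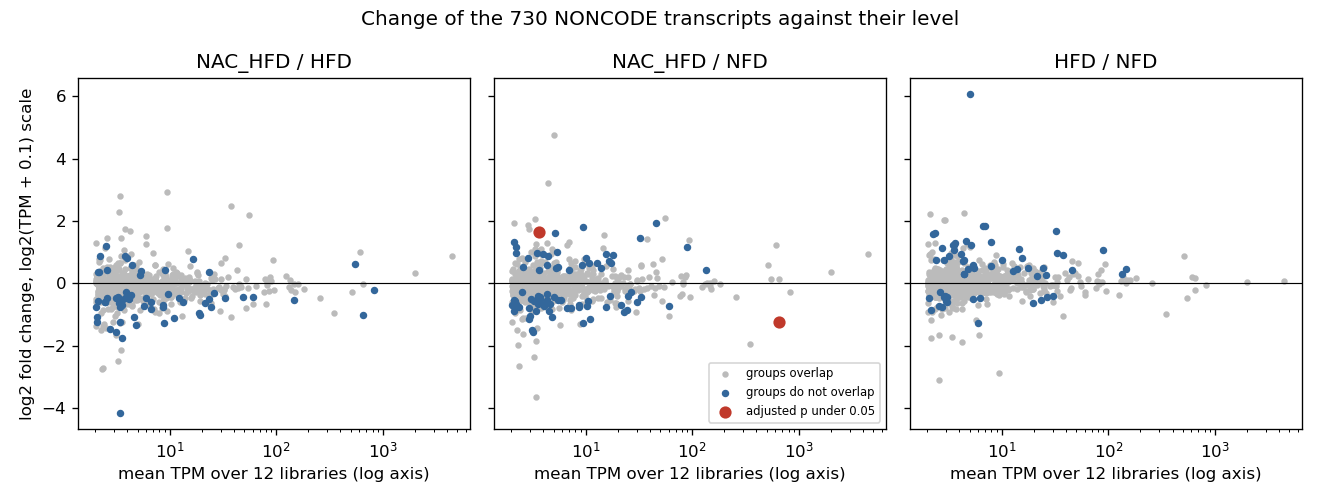
Log2 fold change on the log2(TPM + 0.1) scale against mean TPM (log axis) for the 730 NONCODE transcripts in each comparison; blue points have groups that do not overlap and red points pass limma. The 2 red points, both in NAC_HFD against NFD, are the transcripts of Hspa8 and Narf.

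The size of the changes was modest in most of the 730. Between NAC_HFD and HFD, 19 (2.60%) were at a log2 fold change of at least 1 and 30 (4.11%) at -1 or lower, where all transcripts gave 3.59% and 7.24%. Of these, 1 (0.137%) and 13 (1.78%) had groups without overlap, where all transcripts gave 0.571% and 1.76%. Between NAC_HFD and NFD there were 30 (4.11%) and 26 (3.56%), against 3.63% and 9.52% of all transcripts. Among those, 8 (1.10%) on each side did not overlap, against 0.579% and 2.53%. HFD against NFD gave 26 (3.56%) and 12 (1.64%), against 4.27% and 5.64% of all transcripts, and 16 (2.19%) and 1 (0.137%) of these did not overlap, against 0.837% and 0.881%. Ensembl transcripts of at least 2 TPM are closer in level than all transcripts. Whether or not their groups overlapped, 2.52% were at 1 or more and 5.23% at -1 or lower for NAC_HFD against HFD. Those shares were 3.19% and 7.30% for NAC_HFD against NFD, and 2.28% and 2.95% for HFD against NFD. Comparisons that use the same group share its libraries.

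Transcripts of Gm26917 ran in opposite directions across the NAC_HFD libraries. The gene had 8 NONCODE transcripts among the 730, and 14 lncRNA transcripts in all. NONMMUT029652.2 had 347, 729, 1234 and 1797 TPM in the 4 NAC_HFD libraries, 447, 544, 430 and 319 TPM in HFD and 485, 325, 305 and 391 TPM in NFD. The Ensembl transcript ENSMUST00000192833 of the gene had 3137, 1931, 315 and 0 TPM in the same NAC_HFD libraries, 2451, 2356, 2905 and 2251 TPM in HFD and 2871, 3218, 3135 and 3996 TPM in NFD. In NAC_HFD the libraries highest in the NONCODE transcript were lowest in the Ensembl one. NONMMUT029659.2 had the order of the Ensembl transcript there, at 384, 151, 129 and 52.2 TPM. The sum over all 14 was 4971 ± 753 TPM in NAC_HFD, 5123 ± 386 TPM in HFD and 6691 ± 661 TPM in NFD (SD, n = 4 each), lowest on average in NAC_HFD. The log2 fold change of NONMMUT029652.2 between NAC_HFD and HFD was 1.02 (SE 0.40, limma adjusted p = 0.411).

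Gm37350 varied across the same libraries. NONMMUT042006.2, which made up nearly all of the gene, had 3430, 6094, 6735 and 10596 TPM in NAC_HFD, 3351, 3941, 3367 and 3033 TPM in HFD and 3555, 3012, 3310 and 3089 TPM in NFD. NAC_HFD replicate 1 was within the range of the other groups and the other 3 NAC_HFD libraries above it (log2 fold change against HFD 0.87, SE 0.26, limma adjusted p = 0.276). Without NAC_HFD replicate 1 the fold change was 1.15 with a limma adjusted p of 0.0424. The transcript passed in only this 1 of 18 alternatives, and the limma adjusted p ran up to 0.447 in the others. Both genes set much of the summed TPM, as described above.

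A transcript of Malat1 also varied across the NAC_HFD libraries, at a lower level and with a different library standing apart. NONMMUT033608.2 had 86.6, 17.1, 190 and 207 TPM in NAC_HFD, 18.97, 19.3, 15.4 and 22.6 TPM in HFD and 20.4, 15.6, 31.5 and 16.4 TPM in NFD. NAC_HFD replicate 2 was at the level of the other groups, and the other 3 were several times higher (log2 fold change against HFD 2.21, SE 0.63, limma adjusted p = 0.259). Without that library, the one unlike the rest of its group, the fold change was 2.99 and the limma adjusted p 0.0195. It passed in only this 1 of 18 alternatives, and the limma adjusted p ran up to 0.466 in the others. The NONCODE transcripts were 1.83% of the lncRNA TPM of Malat1. The Ensembl transcript ENSMUST00000172812 had 935, 1238, 812 and 454 TPM in the same NAC_HFD libraries, with 915 to 1308 TPM in HFD and 1046 to 1460 TPM in NFD. ENSMUST00000173314 ran over 1148 to 1452 TPM in NAC_HFD, 978 to 1190 TPM in HFD and 1020 to 1330 TPM in NFD. For ENSMUST00000174808 the ranges were 1304 to 1939 TPM in NAC_HFD, 1098 to 1315 TPM in HFD and 1040 to 1423 TPM in NFD. The gene as a whole stood at 3926 ± 636 TPM in NAC_HFD, 3387 ± 330 TPM in HFD and 3605 ± 519 TPM in NFD (SD, n = 4 each), within each other's spread.

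**Figure D5:**
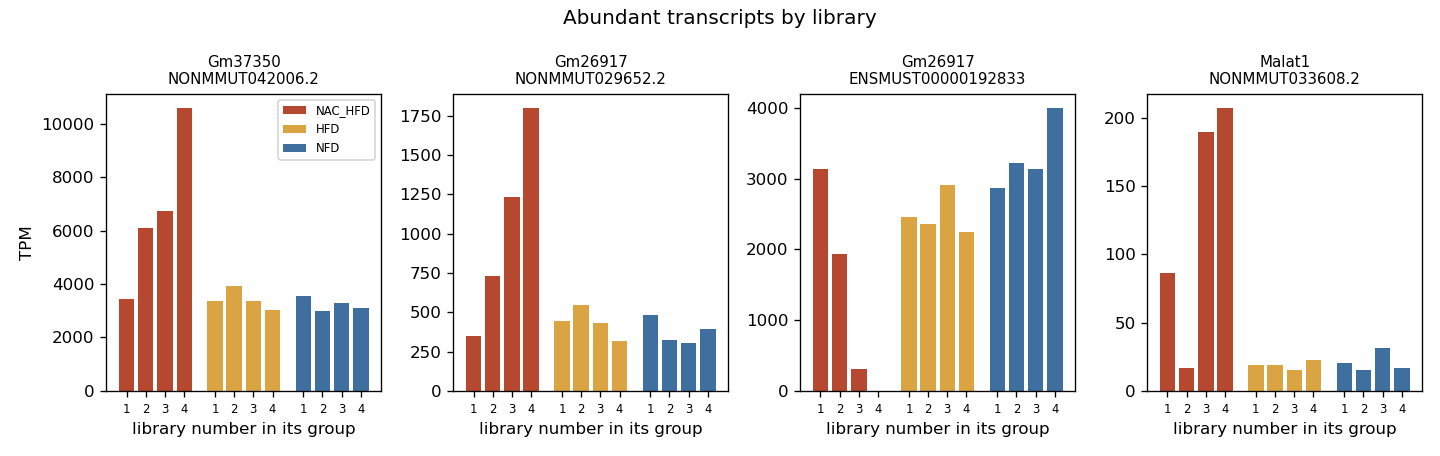
TPM (bars from 0) in each library of NONCODE transcripts of Gm37350, Gm26917 and Malat1 and of 1 Ensembl transcript of Gm26917, with NAC_HFD, HFD and NFD from left to right. The Gm26917 NONCODE transcript ranges over 347 to 1797 TPM in NAC_HFD, against 319 to 544 TPM in HFD and 305 to 485 TPM in NFD, and the Ensembl one over 0 to 3137 TPM in NAC_HFD, against 2251 to 2905 TPM in HFD and 2871 to 3996 TPM in NFD.

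Among other genes with several transcripts, Neat1 (chromosome 19, 5824708 to 5845480) had 2, which together averaged 127 ± 59.1 TPM in NAC_HFD, 106 ± 26.1 TPM in HFD and 97.8 ± 21.1 TPM in NFD (SD, n = 4 each). The groups overlapped. St13, a cochaperone of Hspa8, also had 2, and the more abundant, NONMMUT143801.1, was the steadiest of the 730, at 79.2 to 89.6 TPM in NAC_HFD, 73.1 to 89.2 TPM in HFD and 71.0 to 86.6 TPM in NFD. Its coefficient of variation over 12 libraries was 7.004%, next to 7.27% for a transcript of the cell cycle kinase Nek9 (NONMMUT015054.2). The median over the 730 was 25.3%. The lncRNA gene 0610031O16Rik had 4 transcripts, of which 1, NONMMUT045477.2, was higher on the high fat diet, at 9.18 to 16.5 TPM in NAC_HFD and 9.11 to 13.4 TPM in HFD, against 6.08 to 7.70 TPM in NFD (log2 fold change of HFD against NFD 0.75, limma adjusted p = 0.351). The other 3 of that gene overlapped between all groups.

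At the unsteady end, 6 of the 730 had a coefficient of variation above 100%, and 22 were listed at 0 in at least 1 library. Gm14327, a transcribed pseudogene, had 0 to 10.7 TPM of NONMMUT041713.2 in NAC_HFD and 0 to 2.41 TPM in HFD, and in NFD 20.5 TPM in 1 library and 0 in 3. A transcript of the lncRNA gene 2310001H17Rik (NONMMUT150717.1) had 0 to 3.27 TPM in NAC_HFD and 0 to 5.37 TPM in HFD, and in NFD 7.23 TPM in 1 library and 0 in 3. That of Arfgap3, a regulator of Golgi vesicle traffic (NONMMUT024408.2), ranged over 0 to 2.38 TPM in NAC_HFD, 1.23 to 8.89 TPM in HFD and 0.76 to 5.43 TPM in NFD. With limma none of these 3 passed in any comparison.

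The change of a NONCODE transcript and that of its gene's mRNA were only loosely related. Across 488 transcripts whose gene had at least 1 TPM of mRNA, Pearson's r between the log2 changes was 0.25 for NAC_HFD against HFD, 0.30 for NAC_HFD against NFD and 0.35 for HFD against NFD. These are descriptions across transcripts of the same libraries, not of independent replicates.

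The authors' deposited tables, which list transcripts with a log2 fold change of at least 1 in size and a p under 0.05, hold 18 of the 730 for NAC_HFD against HFD, 12 higher and 6 lower, and 19 for HFD against NFD, 17 higher and 2 lower. In all they list 1075 transcripts for NAC_HFD against HFD and 789 for HFD against NFD, where 52170 lncRNA transcripts were deposited. Of the 18 and of the 19, the authors' deposited tables give 9 each an adjusted p under 0.05, whereas none had one with limma here. Over all listed transcripts the authors gave such a value to 125 for NAC_HFD against HFD and to 84 for HFD against NFD. For Esrp2 the authors' deposited table gave an adjusted p of 1.24e-05 and for C730036E19Rik 1.2e-05. The sources used here do not name the test behind the deposited values.

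Several listed transcripts had groups that did not overlap. For HFD against NFD, Ddah1, which breaks down asymmetric dimethylarginine, had 13.8 to 20.1 TPM of NONMMUT045657.2 in HFD and 6.01 to 10.6 TPM in NFD (log2 fold change 1.10, limma adjusted p = 0.346). Trp53inp1, a p53-induced regulator of autophagy, had 9.50 to 11.8 TPM of NONMMUT046178.2 in HFD and 2.80 to 7.29 TPM in NFD (1.32, limma adjusted p = 0.513). A transcript of the coding gene AI182371 (NONMMUT036857.2) went the other way, with 1.85 to 4.38 TPM in HFD and 5.69 to 7.52 TPM in NFD (-1.26, limma adjusted p = 0.530). On the NAC_HFD side, the lncRNA Gm12909 had 3.97 to 7.70 TPM of NONMMUT115038.1 in NAC_HFD and 10.1 to 16.5 TPM in HFD (log2 fold change -1.11, limma adjusted p = 0.183). Zbtb20, a zinc finger repressor of liver, had 2 selected NONCODE transcripts. NONMMUT026663.2 ranged over 3.76 to 9.26 TPM in NAC_HFD and 2.14 to 3.25 TPM in HFD (0.90, limma adjusted p = 0.366). Together the 2 averaged 7.66 TPM in NAC_HFD, 6.53 TPM in HFD and 6.54 TPM in NFD. That sum differed less between NAC_HFD and HFD than NONMMUT026663.2 alone.

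Egfros, within the gene of the epidermal growth factor receptor Egfr on chromosome 11 (16809648 to 16830750, inside 16752203 to 16913907), was listed for NAC_HFD against HFD, but its groups overlapped. NONMMUT008657.2 had 63.6, 102, 31.5 and 60.2 TPM in NAC_HFD, 34.2, 9.31, 4.10 and 9.27 TPM in HFD and 59.2, 8.26, 7.05 and 65.8 TPM in NFD. NFD split between a pair of high and a pair of low libraries (log2 fold change of NAC_HFD against HFD 2.48, SE 0.81, limma adjusted p = 0.321). Egfr mRNA averaged 231 ± 87.3 TPM in NAC_HFD, 166 ± 57.5 TPM in HFD and 245 ± 91.2 TPM in NFD (SD, n = 4 each).

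A list of 38 well-known lncRNA genes served as company. Of these genes 33 were in the lncRNA table, with 190 tested transcripts, 10 of which, from 8 genes, belong to the 730. With limma none of the 190 passed for NAC_HFD against HFD or NFD, and 1 was lower in HFD than in NFD, an Ensembl transcript of Snhg1 outside the 730. By unadjusted limma p under 0.05 there were 9 higher (4.74%) and 12 lower (6.32%) for NAC_HFD against HFD, where all transcripts gave 2.64% and 7.49%. For NAC_HFD against NFD there were 7 (3.68%) and 41 (21.6%), against 2.75% and 10.5%, and for HFD against NFD 3 (1.58%) and 28 (14.7%), against 3.21% and 4.80%. The median log2 fold change of the 190 was -0.14 for NAC_HFD against HFD, -0.39 for NAC_HFD against NFD and -0.21 for HFD against NFD, where all transcripts gave -0.11, -0.19 and -0.09. The NONCODE transcript of 0610005C13Rik (NONMMUT061184.2) was at 12.2 to 21.9 TPM in NAC_HFD, 15.7 to 33.0 TPM in HFD and 23.5 to 34.3 TPM in NFD, so that NAC_HFD lay below NFD without overlap. Those of Firre, Tug1 and Snhg14 overlapped between all groups; Firre (NONMMUT154279.1), which organises nuclear architecture, had 6.25 to 10.8 TPM in NAC_HFD, 6.82 to 10.5 TPM in HFD and 7.16 to 10.6 TPM in NFD.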

How the data were processed

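Liver RNA was measured in 12 libraries, grouped by the sample titles. Per the submitters' processing notes, fastp, HISAT, RSEM and build GRCm38 were used; the sources used here give neither versions nor settings. The authors deposited TPM for lncRNA and mRNA transcripts, and comparison tables with ratios (fold), log2 fold changes and p-values. TPM keeps no read depth, so depth is unknown, no counting interval was given, and zeros are reported as listed at 0.

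Transcripts at 0.1 TPM or more in at least 4 libraries were tested (25205 of 52170; 11700 were listed at 0 throughout) on log2(TPM + 0.1) with limma 3.58.1 (trend, robust) in R 4.3.3, all 12 libraries in 1 fit, two-sided, adjusted by Benjamini and Hochberg, threshold 0.05. The script was tested on simulated data. The exact permutation test of 4 against 4 cannot go below p = 0.0286. Non-overlap means that every library of 1 group exceeds every library of the other.

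Named transcripts are the 10 highest, those passing or up to 6 with the smallest p per comparison, the extremes of variation, those at the border of 2 TPM, those in the authors' tables, and genes with several members; transcripts of 0610005C13Rik, Firre, Tug1 and Snhg14 come from a list of known lncRNA genes, and Tpt1, Ndufa3, Atp5f1 and Pipox beside their mRNA were chosen after their values were seen. That list was meant for the gene table, which holds 1 of its genes, so the lncRNA table was used. The transcripts and lists were chosen with earlier results of these data known. Alternatives covered pseudocount, filter, scaling, model and leaving out each library. Figures used matplotlib 3.10.9.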

Additional observations from a re-analysis of the deposited data

Results flagged for a closer look

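Examined were 165 sets of 4 libraries, the 3 groups for each of 54 named transcripts and for the summed TPM of the 730. In 12 of them a single library stood farther from the rest of its group than Dixon's 95% critical value. Chance flags about 1 in 20 groups, but the named transcripts were not drawn at random. Those of Gm14327, 2310001H17Rik and Arfgap3 were included for their large variation, so their flags follow from that choice. The count of 12 is therefore not a measure against chance. No cause was tested.

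High libraries were the more common. In NAC_HFD, a transcript of Slc10a2, the bile acid transporter (NONMMUT064466.2), had 9.30 TPM in replicate 2, with the others at 3.25 to 3.95 TPM. The Hnf4aos transcript NONMMUT041010.2 had 17.9 TPM in NAC_HFD replicate 1 and 10.6 to 11.5 TPM in the others. In HFD replicate 3, Gm36264 (NONMMUT016307.2) had 2.19 TPM, with the others at 1.28 to 1.38 TPM, and Gm14327 (NONMMUT041713.2) had 2.41 TPM, with 0 to 0.32 TPM elsewhere.

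Gm14327 had 20.48 TPM in NFD replicate 2 and was listed at 0 in the other 3. The 4732465J04Rik transcript NONMMUT006979.2 had 8.01 TPM in the same library, against 1.62 to 2.24 TPM. In NFD replicate 4, 2310001H17Rik (NONMMUT150717.1) had 7.23 TPM and was listed at 0 in the other 3, and Ripor2 (NONMMUT016715.2) had 2.58 TPM, against 1.29 to 1.51 TPM. Arfgap3 (NONMMUT024408.2) had 5.43 TPM in NFD replicate 3, with the others at 0.76 to 1.54 TPM.

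Low libraries were found for Gm49668 (NONMMUT028371.2), at 2.01 TPM in NAC_HFD replicate 2 against 3.76 to 3.89 TPM, for Gm49607 (NONMMUT098129.1), at 2.19 TPM in HFD replicate 3 against 3.96 to 4.32 TPM, and for Rps6kb1, the ribosomal S6 kinase (NONMMUT140588.1), at 1.43 TPM in HFD replicate 4 against 2.55 to 2.78 TPM.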

How the results depend on the processing

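Of 846 alternative values for 47 single results, 803 kept their side of the threshold, 16 came to pass, 27 no longer passed and 0 changed direction. Only Hspa8 and Narf for NAC_HFD against NFD passed at first, so keeping a side mostly meant still not passing. All 27 losses were theirs: of 18 alternatives each, Hspa8 passed in 5 and Narf in 4. For NAC_HFD against NFD the 2 passing NONCODE transcripts became 0 with log2(TPM + 1), 1 with log2(TPM + 0.5), 0 without a filter on low values, 1 with quantile normalization, 0 without trend and robust and 0 with only the 2 groups compared; median-of-ratios scaling gave 2, both higher (Narf and C730036E19Rik), and rescaling without MSTRG.6188.1 gave 2, both lower (Hspa8 and Gm17491). A filter at a mean of 2 TPM, which tests 4461 transcripts, gave 17, 8 higher and 9 lower. Leaving out 1 library gave 0 to 4, the most without NAC_HFD replicate 1. For HFD against NFD the count was 1 with median-of-ratios scaling, 1 with only the 2 groups compared and 0 to 2 with 1 library left out. For NAC_HFD against HFD it was 0 to 6, with 6 without NAC_HFD replicate 1 and 1 without NAC_HFD replicate 2. The cause was not tested in any of these.

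Over all lncRNA transcripts, the 25 for NAC_HFD against NFD became 16 with log2(TPM + 1), 3 without a filter, 123 with the filter at 2 TPM, 12 without trend and robust, 13 with only the 2 groups compared and 2 to 69 with 1 library left out. The 8 for NAC_HFD against HFD became 5 without a filter, 2 with the filter at 2 TPM, 5 with median-of-ratios scaling, 5 with quantile normalization, 4 with only the 2 groups compared and 1 to 37 with 1 library left out. The 7 for HFD against NFD became 3 with the filter at 2 TPM and 2 to 5 with 1 library left out. Higher and lower calls for HFD against NFD split 6 to 2 with median-of-ratios scaling, against 4 to 3; for NAC_HFD against HFD 2 to 3 against 2 to 6, and for NAC_HFD against NFD 9 to 11 against 7 to 18.

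The groups share replicate numbers, but same-numbered libraries did not deviate together (r of -0.04 to 0.03 over 12 pairs, and 4 of 12 libraries correlated best with their own number). With the replicate number as a block the NONCODE count for NAC_HFD against NFD was 0, and over all transcripts 1 passed in each comparison. The summed TPM of the 730 was 28370.5, 23456.4 and 23393.1 for NAC_HFD, HFD and NFD when rescaled without MSTRG.6188.1, and the NFD mean 15554.0 with median-of-ratios scaling. Depth is unknown, which limits what can be said of transcripts near 0.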
